A study of Mus musculus with 4 samples.

Results

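Endothelial genes encode the surface receptors, junction proteins, secreted factors and regulators that mark the cells lining blood vessels. The 10 described here, of 21523 protein-coding genes placed on chromosomes 1 to 19 and X, are Cdh5, Eng, Vwf, Egfl7, Pecam1, Kdr, Tek, Tie1, Flt1 and Erg. They were chosen from known endothelial markers at a time when the peaks counted in their loci were already known, so those counts are a description and carry no test. The data come from CUT&RUN, in which an antibody tethers a nuclease to chromatin and the DNA released around the bound places is sequenced. The cells were dissociated from molar tooth germs of CD1 mice, wild type in genotype, at stage E13.5. There were 2 libraries for Smad1/5 in its phosphorylated form (pSmad1/5) and 2 for phosphorylated Smad3 (pSmad3). The labels name no treatment and do not say whether tooth germs were pooled. Each antibody is represented by 1 deposited list of peaks common to its libraries, with no value per library, so no spread between libraries can be given and read depth is unknown.

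The pSmad1/5 list held 10741 rows with a median width of 2385 bp, and the pSmad3 list held 7905 rows with a median width of 4693 bp. A row is 1 line of a list. Rows that share their total signal, maximum signal and region of the maximum are pieces of 1 call, and the lists hold 8380 and 7682 distinct calls. The locus of a gene is its RefSeq body in the mm10 assembly and 10 kb on each side, and a row belongs to it if at least 1 bp lies inside. A gene without a row has no deposited call, and signal below the authors' threshold was not examined. Dissected tooth germs can hold epithelium, mesenchyme, vessels, nerves and blood cells together. The lists do not show in which of these cells a place was bound, and neither the tissue label nor the endothelial identity of the genes can be checked from them, since no expression was measured.

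Blood vessel cells receive both branches of the TGF-β superfamily. BMP ligands act through type I receptors that phosphorylate Smad1 and Smad5, TGF-β and activin act through receptors that phosphorylate Smad3, and the co-receptor endoglin modulates both in endothelium. Growth of vessels depends on VEGF receptors and Tie receptors, and the identity of the cells depends on ETS transcription factors such as Erg.

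Rows of pSmad1/5 lay in 7 of the 10 loci and rows of pSmad3 in 5. Eng, Vwf, Egfl7, Kdr and Erg had rows of both antibodies. Cdh5 and Flt1 had pSmad1/5 rows alone, 0 genes had pSmad3 rows alone, and Pecam1, Tek and Tie1 had neither. These counts rest in part on weaker rows: with only rows at or above the median total signal of their list, 4 genes had a pSmad1/5 row and 2 had both, on 6 pSmad1/5 and 4 pSmad3 rows, and the shares of all protein-coding genes were 14.4% and 6.27%. Among all 21523 protein-coding genes, 27.3% had a pSmad1/5 row in the locus, 24.4% a pSmad3 row, 14.1% both and 62.4% neither. Because longer loci meet more rows, the same shares were taken over the 12229 protein-coding genes whose loci were 31600 to 247432 bp long, the range of the endothelial genes. They were 30.3%, 27.2%, 16.3% and 58.8%. Only the range was matched and not the lengths within it, so a difference in locus length may remain. In all, 11 pSmad1/5 rows from 9 calls and 10 pSmad3 rows from 10 calls fell in the loci. This is 10.2 and 9.27 rows per Mb of locus, beside 6.78 and 5.31 over all protein-coding genes, summed gene by gene. The counts are small, and Eng alone holds 6 of the 21 rows.

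**Figure D1:**
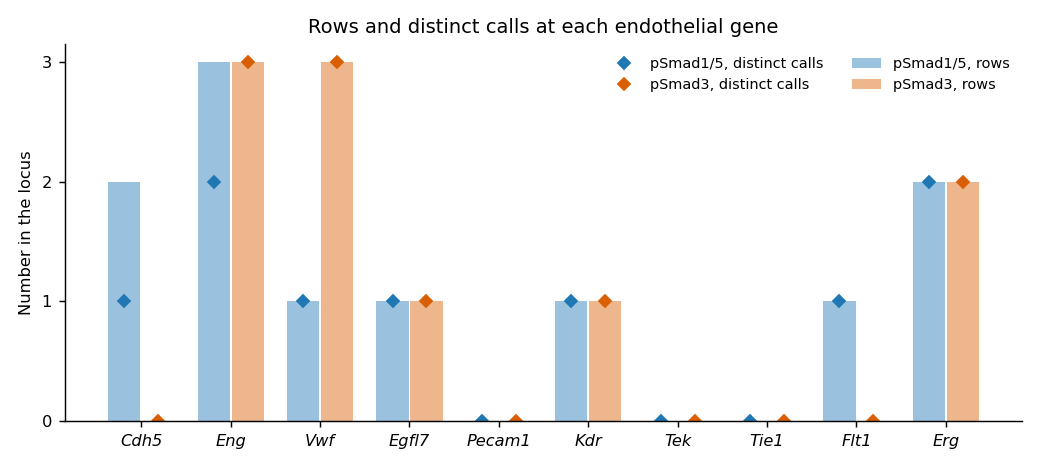
Bars give the number of deposited rows and diamonds the number of distinct calls in the locus of each endothelial gene (y axis), for pSmad1/5 (blue) and pSmad3 (orange). Eng had 3 rows of each antibody, while Pecam1, Tek and Tie1 had 0.

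**Figure D2:**
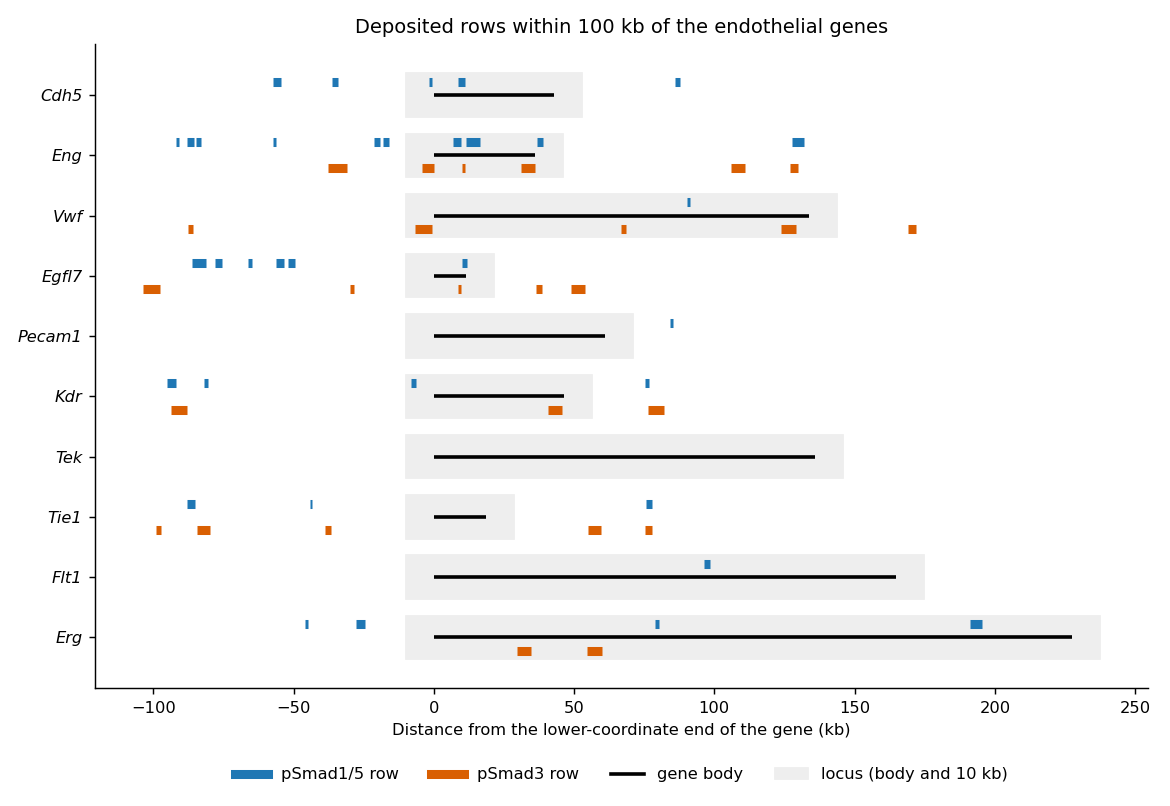
Each line is 1 gene, drawn from its lower-coordinate end at 0 (x axis, kb), with the body in black, the locus in grey, and pSmad1/5 rows (blue, above) and pSmad3 rows (orange, below) within 100 kb; the narrowest rows are widened to stay visible. Rows of the antibodies lie apart inside the loci, and Tek has none in the window.

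Eng encodes endoglin, the TGF-β and BMP co-receptor of endothelium, and held the most rows of the 10 genes. It lies on the plus strand of chromosome 2 (32646595 to 32682669). Along the gene the rows of the antibodies alternated, beginning with pSmad3. A pSmad3 row (32642449 to 32646525) ended 70 bp before the RefSeq start. A pSmad1/5 row (32653595 to 32656223) began 7000 bp after that start, and a second piece of the same call ran from 32657928 to 32663134. Between these pieces lay a pSmad3 row of 907 bp (32656814 to 32657720), with 590 bases to the one side and 207 to the other. The last pSmad3 row (32677596 to 32682668) ended 1 bp inside the gene, where it also overlapped Fpgs, a folate enzyme gene. After a further 803 bases a pSmad1/5 row (32683472 to 32685497) lay inside Fpgs and outside Eng.

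The highest of these by rank within its own list was the pSmad1/5 call in pieces, with a total signal of 103692, above 79.2% of its list. Its maximum of 17 was given for 1 bp at 32647805, 1210 bp after the Eng start and 5789 bases from the nearer piece, so the place of highest signal was not itself deposited as a row. The pSmad3 row before the start was weak, with a total signal of 21506, above 5.34% of its list, and a maximum of 12 against a list median of 13. The maximum lay 604 bp before the start. The short pSmad3 row between the pieces stood at 67.0% and the one at the end of the gene at 24.8%. Rows beyond the locus continued upstream, where both pieces of another pSmad1/5 call lay in Ak1, the nearer 15854 bp from Eng.

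**Figure D3:**
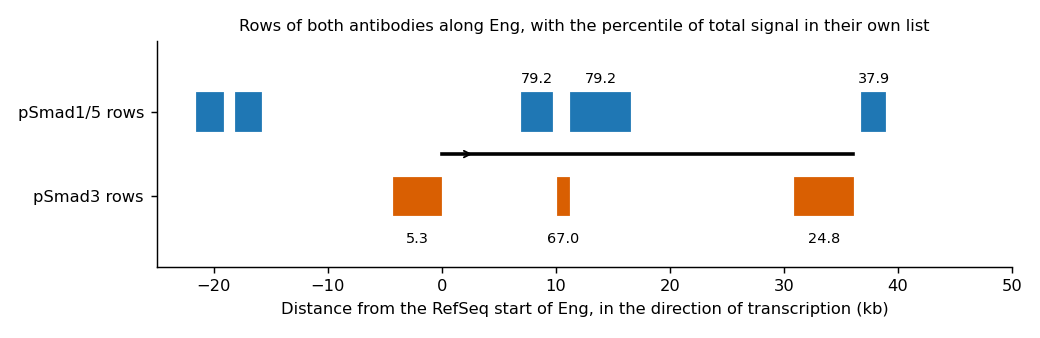
Rows of pSmad1/5 (blue) and pSmad3 (orange) along Eng (black line, arrow in the direction of transcription), by distance from the RefSeq start in kb (x axis), with the percentile of total signal of each row of the locus within its own list. The rows alternate without overlap, and the row nearest the start, of pSmad3, stands at 5.3.

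The sequence before the start of Eng is shown because 181 of its 250 bases lie under that pSmad3 row. Capitals mark the letters GTCT or, on the other strand, AGAC, the core of the box that Smad3 and Smad4 contact. The sequence is the RefSeq plus strand of GRCm38.p6, chr2:32646345-32646594, and stops before the transcribed part.
Eng: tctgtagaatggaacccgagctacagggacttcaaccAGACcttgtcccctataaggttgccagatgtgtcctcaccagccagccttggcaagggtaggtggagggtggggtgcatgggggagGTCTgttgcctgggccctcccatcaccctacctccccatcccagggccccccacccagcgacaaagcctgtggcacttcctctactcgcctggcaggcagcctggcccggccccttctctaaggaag

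The window before Eng held GTCT or AGAC in 2 places, both under the pSmad3 row, and both were part of CAGAC or its complement. The same letters occurred in 82.9% of 32851 RefSeq promoter windows of this length, and CAGAC in 42.2%, so a match is common anywhere.

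Kdr and Flt1 encode the VEGF receptors VEGFR2, the main signalling receptor, and VEGFR1, which binds VEGF tightly and limits it. Kdr lies on the minus strand of chromosome 5 (75932827 to 75979072). Its pSmad3 row (75973481 to 75978569) covered the RefSeq start at 75978455 and the bases after it. The row ended 503 bp inside the upper-coordinate end of the gene body. It was the single row that covered a RefSeq start of its own gene, among 8 pSmad1/5 and 7 pSmad3 rows at genes for which a start was given. Of the pSmad3 rows in all protein-coding loci, 14.4% covered a RefSeq start of any gene. For the Kdr row the signal was moderate within its list. The total signal of 31763 was above 61.4% of the list, and the maximum of 14 lay inside the row, 2881 bp into the gene from the start. The row also overlapped Gm32727, a long non-coding RNA gene whose body overlaps that end of Kdr. The pSmad1/5 row of Kdr (75924613 to 75926549) lay beyond the other end of the gene, 6278 bp outside it. Its total signal of 35997 was above 1.47% of the list, so it was among the weakest calls deposited for that antibody.

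The 250 bases before the Kdr start are shown for comparison with Eng, on the minus strand of GRCm38.p6, chr5:75978456-75978705, with the same letters in capitals. The last 114 bases, next to the start, lie under the pSmad3 row. The window lies within the gene body as given, which extends beyond this start.
Kdr: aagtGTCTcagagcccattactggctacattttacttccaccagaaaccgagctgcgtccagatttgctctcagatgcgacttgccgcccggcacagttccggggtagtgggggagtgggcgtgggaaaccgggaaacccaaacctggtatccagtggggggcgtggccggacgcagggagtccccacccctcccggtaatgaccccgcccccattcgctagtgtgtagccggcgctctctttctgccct

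The Kdr window held GTCT in 1 place, near its far end and not under the row, and it held no CAGAC. Neither window held GGCGCC, a GC-rich site bound by Smads, which was present in 9.59% of all windows.

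Flt1, on the same chromosome (147561604 to 147726438, minus strand), had 1 pSmad1/5 row in the body (147657783 to 147660124), 65887 bp from the start. The row overlapped Gm35383, a long non-coding RNA gene inside Flt1. Its total signal of 37129 was above 6.63% of the list and its maximum was 14. There was 0 other row of either antibody within 100 kb, and the nearest pSmad3 row was 571636 bp away. Kdr thus had a pSmad3 row at its start and Flt1 a low-ranking pSmad1/5 row alone, a difference that was not tested.

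Tek and Tie1 encode the angiopoietin receptor Tie2 and its partner Tie1, which stabilise vessels. Neither had a row in its locus. Tek (chromosome 4, 94739086 to 94874976) had 0 rows of either antibody within 100 kb, the single gene of the 10 with an empty window. The nearest pSmad1/5 row lay 177008 bp and the nearest pSmad3 row 374518 bp from the gene. Tie1 (chromosome 4, 118471191 to 118489849) had 3 pSmad1/5 and 5 pSmad3 rows within 100 kb, the closest of them a pSmad3 row 36397 bp away. Farther out, 57035 and 56564 bp from Tie1, rows of both antibodies overlapped with maxima of 725 and 617, far above the list medians of 16 and 13. Such maxima did not occur at the genes themselves.

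Cdh5 and Pecam1 encode VE-cadherin and CD31, adhesion proteins of the junctions between endothelial cells. Cdh5 (chromosome 8, 104101613 to 104144504) had 2 pSmad1/5 rows, both pieces of 1 call with a total signal of 87454, above 73.0% of the list. The first (104099933 to 104100901) lay 712 bp outside the lower-coordinate end of the gene, under the long non-coding RNA gene Gm29682. The second (104110278 to 104112653) lay 8665 bp inside. The region given for the maximum of 17 was 11056 bp long and ran from near the first piece into the second, across the end of the gene. No pSmad3 row was nearer than 208364 bp. Pecam1 (chromosome 11, 106654213 to 106715281) had no row in the locus. One pSmad1/5 row lay 22992 bp outside, with a maximum of 34 and a total signal above 25.9% of the list, and the nearest pSmad3 row was 227067 bp away.

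Vwf encodes von Willebrand factor, the carrier and adhesion protein that endothelium stores for clotting. It was the gene with the largest excess of pSmad3 over pSmad1/5 rows among the 10, with 3 against 1. On chromosome 6 (125552948 to 125686679), a pSmad3 row of 6133 bp (125546282 to 125552414) ended 534 bp outside the lower-coordinate end. Another lay in the body (125619602 to 125621644), with a maximum of 22, the highest of the pSmad3 rows at these genes. Its total signal was above only 12.7% of the list, and the region of that maximum lay 1548 bases outside the row. The third (125676679 to 125682023) had a total signal of 78222, above 92.9% of the list, the highest rank of the 21 rows. The pSmad1/5 row (125643331 to 125643513) was 183 bp wide, wider than only 2.07% of that list's rows, and the maximum of its call lay 3889 bases away.

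Egfl7 encodes a secreted protein that guides vessel tubes, and its body also holds the genes of the miRNA miR-126, a regulator of VEGF signalling in endothelium. It lies on the plus strand of chromosome 2 (26581083 to 26592682). The pSmad1/5 row (26591242 to 26593015) ran over the downstream end of Egfl7 and covered all 73 bases of the Mir126a hairpin and all 58 of the Mir126b hairpin on the other strand. Its total signal of 98167 was above 77.5% of the list, and the maximum of 16 lay 231 bases before the row. The pSmad3 row at Egfl7 (26589724 to 26589757) was 34 bp wide, with 1484 bases to the pSmad1/5 row and 1599 to the hairpin of Mir126a. The maximum of its call lay 4817 bases farther on and 1893 bp outside Egfl7.

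Of the mature miRNAs encoded under the pSmad1/5 row, 3 are shown from RefSeq (GRCm38.p6), with the seed, bases 2 to 8, in capitals. The Mir126a hairpin also gives miR-126a-5p. The seeds of the 3 shown differ from one another.
miR-126a-3p: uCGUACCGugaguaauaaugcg
miR-126b-3p: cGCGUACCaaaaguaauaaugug
miR-126b-5p: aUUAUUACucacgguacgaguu

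Erg encodes an ETS factor that maintains endothelial identity and activates Cdh5 and other genes of these cells. It is the longest of the 10 genes, on the minus strand of chromosome 16 (95359169 to 95586600), and had 2 rows of each antibody, all inside the body. The pSmad3 rows (95388936 to 95393652 and 95413654 to 95419110) lay toward the downstream end, with total signals above 21.2% and 53.1% of the list. The pSmad1/5 rows (95438008 to 95439394 and 95550469 to 95554537) lay upstream of these, above 33.8% and 64.6%. RefSeq gives 3 starts, and the nearest row to any of them was a pSmad1/5 row 19954 bp away. The rows of the antibodies thus lay in separate stretches of Erg, 18897 bases apart at the closest.

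None of the rows at these genes overlapped a row of the other antibody. This was 0 of 11 pSmad1/5 rows, which allows a share of up to 27.3%, and 0 of 10 pSmad3 rows, which allows up to 30.0%. Each limit is 3 divided by the number of rows, an approximation that is rough for so few rows. With pieces of 1 call counted once, the pSmad1/5 limit was 33.3%. In the whole lists, on chromosomes 1 to 19, X and Y, 21.9% of pSmad1/5 rows and 23.1% of pSmad3 rows overlapped, so with this few rows an ordinary share of overlap could not be told from none. These limits cover counting error only and treat rows as independent, although 4 of the pSmad1/5 rows come from 2 calls. The absence of overlap holds for rows, which can be pieces of longer calls. At Eng a pSmad3 row lay between pieces of the same pSmad1/5 call. At Egfl7 the pSmad1/5 row lay between the pSmad3 row and the maximum of that pSmad3 call. Overlap of whole calls was not examined. The bases between a row and the nearest row of the other list ran from 207, at Eng, to 637949, at Flt1. In the rest of the 100 kb windows, 4 of 24 pSmad1/5 and 4 of 16 pSmad3 rows did overlap, at places near Eng, Kdr and Tie1.

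Signals at the endothelial genes were ordinary for their lists. The total and maximum are the authors' values for each call, and they are ranked only within the list of the same antibody. Total signal of the pSmad1/5 rows ran from above 1.47% (Kdr) to above 79.2% (Eng) of the list, with a median of 64.6%. With each call at these genes counted once, but still ranked among all rows of the list, the median was 37.9%. It was lower because the calls in pieces at Eng and Cdh5 are among the higher ones. The pSmad3 rows ran from 5.34% (Eng) to 92.9% (Vwf), with a median of 48.1%. Maxima were 14 to 17 for pSmad1/5, beside a list median of 16 with quartiles 15 and 19. They were 10 to 22 for pSmad3, beside a median of 13 with quartiles 12 and 15. For 2 of 11 pSmad1/5 and 7 of 10 pSmad3 rows the highest signal fell within the row, beside 27.1% and 70.0% in the lists.

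**Figure D4:**
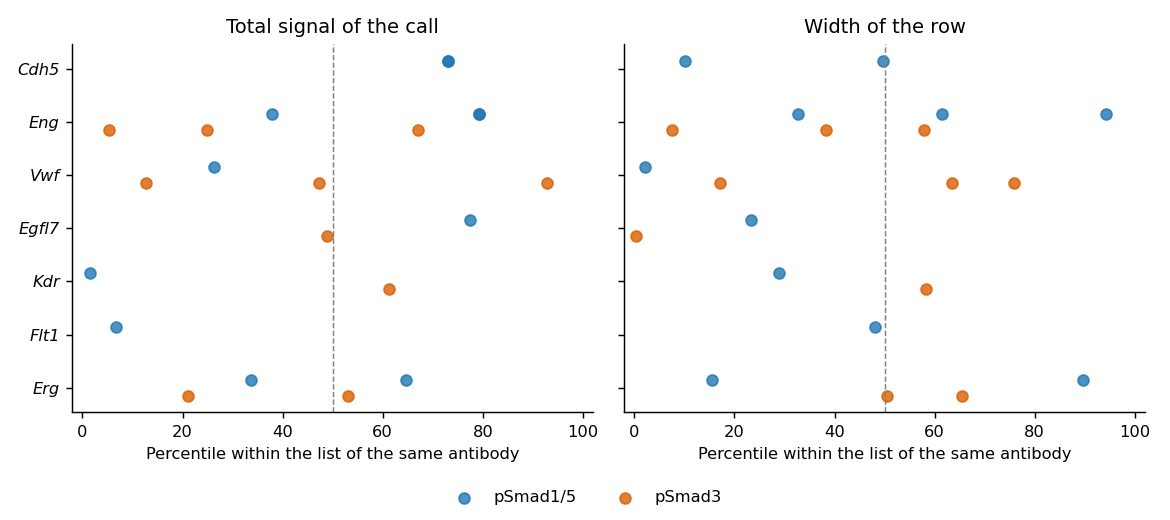
Each point is 1 row at a gene (y axis), placed by the percentile of its call's total signal (left) or of its own width (right) within the list of the same antibody (x axes), with the list median dashed; pieces of 1 call coincide on the left. Points spread over both sides of the medians, and the narrowest are the pSmad1/5 row at Vwf (183 bp) and the pSmad3 row at Egfl7 (34 bp).

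Most rows lay inside the gene bodies, but the bodies also make up most of the summed length of these loci. No preference for bodies can be read from this. Of the pSmad1/5 rows 7 were inside, 1 ran over a gene end and 3 were outside, and of the pSmad3 rows 8 were inside and 2 outside. Starts were given for 7 of the 10 genes, not for Cdh5, Vwf and Pecam1. At these 7 genes, 0 of 8 pSmad1/5 rows and 1 of 7 pSmad3 rows, the Kdr row, covered a start of their own gene. In the loci of all protein-coding genes, 9.13% of pSmad1/5 and 14.4% of pSmad3 rows covered a RefSeq start of any gene. With this few rows, no difference from those shares can be read. Across the 11 promoter windows of the 7 genes, GGAA, the core that ETS factors bind, occurred on either strand in 10, beside 93.4% of all windows. The window without it was 1 of the 3 of Erg. Neither CCGGAAGT nor ACCGGAAG, longer ETS sites, occurred in any of the 11, beside 2.88% and 1.72% of all windows.

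The edge of the locus at 10 kb decided whether Kdr had a pSmad1/5 row, and so whether it had both antibodies. With 5 kb on each side Kdr had no pSmad1/5 row, and with 20 kb Eng had 5 pSmad1/5 rows in place of 3. The other genes kept their counts in both settings. The row farthest out among those counted was the pSmad1/5 row of Kdr, 6278 bp from the gene. The next beyond the edge was the pSmad1/5 row in Ak1, 15854 bp from Eng, a gene already counted.

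A wider set of endothelial genes gave lower counts, in a comparison with no test. In a list of 38 further markers of endothelium, 7 had a pSmad1/5 row (18.4%), 2 a pSmad3 row (5.26%), 1 both and 30 neither, where 27.3% and 24.4% of all protein-coding genes had a row. The one with both was Podxl, a surface sialomucin, with 1 row of each (percentiles 16.7 and 38.9). Plvap, a component of endothelial diaphragms, and Nos3, endothelial nitric oxide synthase, had 1 pSmad1/5 row each (70.3 and 64.7), and Mmrn2, an endothelial matrix protein, had 1 pSmad3 row (60.4). The Plvap row overlapped a pSmad3 row that lay outside the locus. In the whole list, 21.9% of pSmad1/5 rows overlapped a pSmad3 row. The loci of the 38 markers were shorter, with a median of 33.5 kb against 73.7 kb for the 10 genes. Per Mb of locus they held 4.41 rows of pSmad1/5 and 1.10 of pSmad3.

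Among 14 genes of VEGF, angiopoietin and neuropilin signalling, 5 had a pSmad1/5 row (35.7%), 6 a pSmad3 row (42.9%) and 4 both (28.6%), beside 27.3%, 24.4% and 14.1% of all protein-coding genes. Those with both were the ligand genes Vegfa (2 and 1 rows), Vegfb (1 and 2) and Pgf (1 and 1), and the receptor gene Flt4 (2 and 1), which encodes VEGFR3. Vegfb stood highest, at percentiles 89.7 and 88.5. At Pgf and Flt4 a row of each antibody overlapped, where 21.9% of pSmad1/5 and 23.1% of pSmad3 rows in the whole lists did. The rows of Kdr lay 46931 bases apart, and Flt1 had no pSmad3 row, so no overlap was possible there. Angpt4, an angiopoietin, and Plxnd1, a semaphorin receptor of vessels, had 2 pSmad3 rows each (91.1 and 85.7), and Nrp2, a co-receptor, 1 pSmad1/5 row (56.4).

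Of 22 transcription factors that act in endothelium, 5 had a pSmad1/5 row (22.7%), 8 a pSmad3 row (36.4%) and 2 both (9.09%). For pSmad1/5 and for both antibodies this was below the shares of all protein-coding genes, 27.3% and 14.1%, and for pSmad3 above 24.4%. Elk3, an ETS factor, and Sox18, which acts in lymphatic vessels, had 1 row of each antibody. Fli1, the ETS factor closest to Erg, had 2 pSmad1/5 rows (highest percentile 80.3) and 0 of pSmad3, where Erg had 2 and 2. Klf2, a factor induced by blood flow, had 1 pSmad1/5 row (35.1), and Lyl1 and Etv6 had 1 pSmad3 row each (84.5 and 83.7). In a list of 15 TGF-β family genes with roles in endothelium, 4 had a pSmad1/5 row (26.7%, near the share of all genes), 6 a pSmad3 row (40%) and 3 both (20%). Gdf2, the gene of BMP9, a ligand that binds endoglin, had 2 and 1 rows, Tgfbr3, a co-receptor related to endoglin, 1 and 1, and Smad6 1 and 1. Tgfbr2, the type II TGF-β receptor, had 3 pSmad1/5 rows and 0 of pSmad3, while Smad7 and Id1 had 1 pSmad3 row each.

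Markers of other cells that the tooth germ could hold gave shares on both sides of those over all protein-coding genes, 27.3% and 24.4%. Rows of pSmad1/5 and pSmad3 were found at 6 and 6 of 12 pericyte and mural cell genes, and at 6 and 8 of 16 macrophage and blood genes. They were found at 4 and 1 of 20 dental mesenchyme genes, 7 and 3 of 20 dental epithelium genes, and 3 and 3 of 12 Schwann cell and nerve genes. Among the macrophage and blood genes, C1qa, C1qb and C1qc each had 1 pSmad1/5 row of the same percentile (44.9) and maximum (19). This may be 1 call counted at each of these genes. What part each cell type had in the rows at endothelial genes was not tested.

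**Figure D5:**
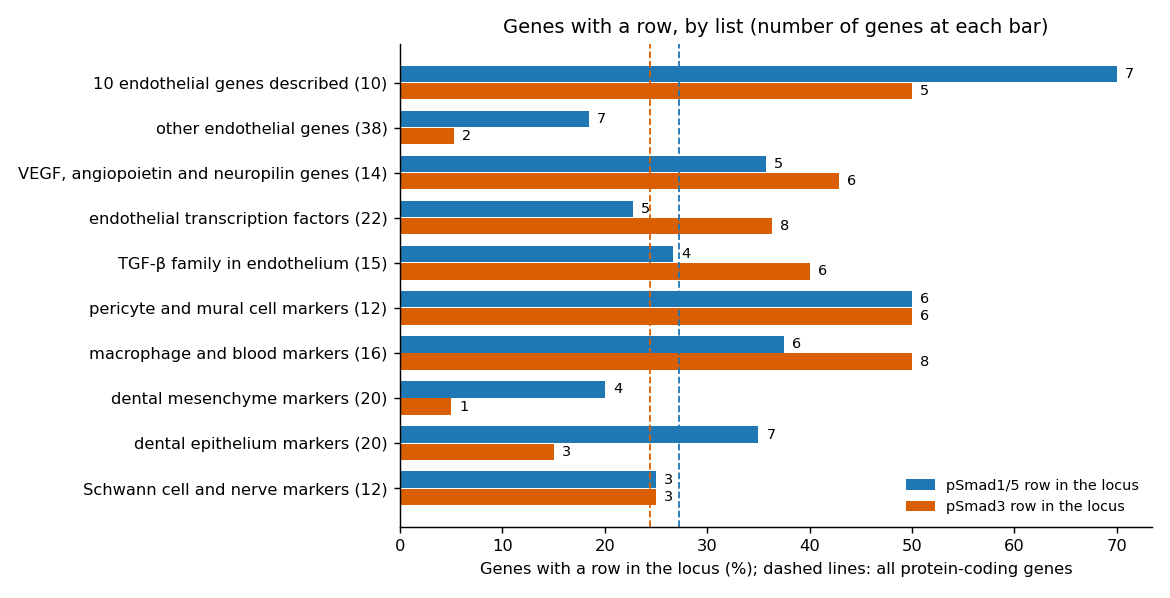
Bars give the percentage of genes in each list (y axis, size in brackets) with a pSmad1/5 row (blue) or a pSmad3 row (orange) in the locus, with the number of genes beside each bar and the share of all protein-coding genes dashed. The 10 genes described stand at 70 and 50%, the 38 other endothelial genes at 18.4 and 5.26%.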

How the data were processed

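The 4 libraries were processed by the authors. Tools named in the submitters' processing notes, with no role or version, are deepTools, SEACR, SAMtools, Bowtie2 and bedtools, and the build is mm10. Settings, control libraries and the joining of calls between libraries are not stated in the labels. What the authors deposited is a list for each antibody whose rows carry a position and, per the labels, total signal, maximum signal and the region of the maximum, in an unstated coverage scaling.

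Rows were counted with Python 3.11.15 and pandas 2.3.3 after a check of the counting on planted rows. Positions are 1-based. Genes came from RefSeq GRCm38.p6, the assembly of mm10, without those listed in the first 3 Mb of a chromosome. Sequences came from the RefSeq promoter and miRNA tables, which held promoters for 7 of the 10 genes. Percentiles give the share of a list's rows with a lower value. Motifs were counted on both strands, overlaps included, in the 250 bases before a start.

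The members and lists were chosen with earlier results of these data known. All 169 list genes matched RefSeq symbols. The genes named are the 10 members, protein-coding genes under or beside their rows, and from each list up to 4 genes with rows of both antibodies (by number of rows) and up to 2 more per antibody (by percentile). Genes named outside this rule, Ak1 among them, were chosen after their values were seen, as were the non-coding genes. No test was made, because each antibody has 1 list. No search for genes of like pattern was made.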

Additional observations from a re-analysis of the deposited data

How the results depend on the processing

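Of 56 alternative counts, 52 stayed within 1.5 times the main one and 4 did not. All of these came from keeping rows at or above the median total signal of their list, which leaves fewer rows. This left 4 genes with a pSmad1/5 row, 2 with both antibodies, 6 pSmad1/5 rows and 4 pSmad3 rows. The shares of all protein-coding genes were then 14.4% for pSmad1/5, 14.1% for pSmad3 and 6.27% for both. With the gene body alone or 5 kb on each side, Kdr had no pSmad1/5 row, so 6 genes had one and 4 had both. Over the 21523 protein-coding genes, the body alone gave shares of 18.4% for pSmad1/5 and 8.59% for both. At 5 kb the corresponding shares were 23.2% and 11.4%. Pecam1, Tek and Tie1 had no row in any of these settings, nor with 20 kb or with rows given to the nearest gene. Overlap between the antibodies at these genes stayed at 0 in each setting run for it. Those settings only dropped rows or asked for more overlap, so this 0 could not have risen. Leaving out rows with maxima over 2 times the list median removed no row at these genes, so the counts of that setting could not move either. No paired analysis was possible because the deposited lists carry no value per library, and for the same reason no library could be left out.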

Other observations

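Markers of pericytes and mural cells, which wrap vessels, held 18.98 pSmad1/5 and 14.6 pSmad3 rows per Mb of locus. The 10 endothelial genes held 10.2 and 9.27, and all protein-coding genes 6.78 and 5.31. These densities count the pieces of a call separately. The pSmad1/5 rows at Cspg4, Pdgfrb, Notch3 and Mcam included pieces of the same call, as did those at Eng and Cdh5, so densities by call are lower. Cspg4, the gene of the pericyte proteoglycan NG2, had 4 pSmad1/5 rows from 2 calls and 2 pSmad3 rows (highest percentiles 91.1 and 86.0), and rows of the antibodies overlapped there. Pdgfrb, the PDGF receptor of pericytes, had 2 pieces of 1 call of each antibody (84.9 and 92.8), without overlap. Notch3 had 3 and 1 rows, and Anpep 1 and 2, with 1 overlapping pair each. The list holds 12 genes, and its difference from the endothelial genes was not tested.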
